A study of Mus musculus with 8 samples.

Results

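Eph receptors and ephrins, Slits and Robos, and netrins with their receptors were examined as 1 group of axon guidance genes in the brains of Cstf2 D50A mice. The members were chosen by gene symbol, with earlier results of these data known. They were all EphA and EphB receptors, ephrin-A and ephrin-B ligands, Slit1 to Slit3 and Robo1 to Robo4. Unc5a to Unc5d, Ntn1, Ntn3, Ntn4, Ntng1, Ntng2, Dcc, Neo1 and L1cam completed the rule. The rule found 41 of the 25815 genes in the count table: 9 EphA and 5 EphB receptors, 5 ephrin-A and 3 ephrin-B ligands, 3 Slits, 4 Robos, 5 netrin or netrin-G genes, 4 Unc5 receptors, the receptor pair Dcc and Neo1, and L1cam. Of the 41, 40 passed the filter on low counts and were tested. The exception was Efna4, an ephrin-A ligand gene, with 2 to 11 counts per library.

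Axon guidance genes encode the ligands and receptors by which growing axons are attracted or repelled. Eph receptors are tyrosine kinases bound by ephrins on a neighbouring cell; ephrin-A ligands are held in the membrane by a lipid anchor, ephrin-B ligands span it, and signals can pass into both cells. Slits are secreted ligands of Robo receptors that keep axons from crossing or recrossing the midline, and netrin-1 attracts axons through Dcc and repels them where Unc5 receptors take part. In the adult brain many of these genes stay active at synapses, and some are expressed in blood vessels.

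The study sequenced polyadenylated RNA of total brain taken at 50 days of age. The mutant group, called D50A after the alanine that replaces an aspartate in the RNA-binding part of CSTF2, a factor of mRNA 3' end formation, held 5 libraries. The wild-type littermates, called WT, held 3. Both groups share the C57BL/6NCrl background, reached by 4 generations of backcrossing followed by breeding within the colony, and neither was treated. No sex, litter or batch is labelled. Libraries were numbered by accession within a group, which pairs no animals. Each p-value sets the difference between the groups against the spread between these libraries. Cstf2 lies on the X chromosome, and the labels give no zygosity.

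Libraries held 13675945 to 24802272 counts. D50A 3 stood apart: genes of the mitochondrial genome took 11.9% of its counts, and 4.08% to 5.14% elsewhere, and the 41 members took 0.0688% of its counts against 0.189% to 0.223%. Every comparison is therefore given with all 8 libraries and without D50A 3. Cstf2, the gene that carries the mutation, was at 65.8 CPM (counts scaled to library size by the TMM method) in D50A 3, at 105 to 129 CPM in the other D50A libraries and at 122 to 135 CPM in WT; a missense change need not alter this level, so it does not check the labels. The libraries also differed in cerebellar RNA. The 12 cerebellar granule cell markers summed to 749 to 1027 CPM in D50A 2 to 5, to 178 CPM in D50A 1 and to 187 to 193 CPM in WT. Gabra6, a defining granule cell marker, was at 0 in D50A 1 and WT 1, although the labels give total brain for every sample.

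Because the mutated factor acts where mRNA 3' ends are cut, the annotated 3' ends of the members were read. The poly(A) signal is a hexamer, most often AATAAA, that lies a short way before the cut. Of 40 members with a coding transcript in GENCODE M21 (mm10), 30 (75%) held AATAAA within the last 50 bases of the transcript strand, 4 (10%) held ATTAAA but not AATAAA, and 6 (15%) held neither. Among 18216 coding genes of the table these shares were 61.9%, 13.9% and 24.2%. AATAAA was looked for first, and a match describes the annotation and not the site used in these mice. Windows of 30 bases are shown for 8 members whose counts the results below turn on, 5' to 3' on the transcript strand, with the hexamer in capitals.
Unc5d (chr8:28646725-28646754, minus strand): cagttatttatgAATAAAgagtcttttctt
Epha4 (chr1:77367195-77367224, minus strand): gcatttgaaagtAATAAAgtagttgccgta
Epha7 (chr4:28967467-28967496, plus strand): ccagcttaaaatAATAAAcgagtctattag
Epha5 (chr5:84057798-84057827, minus strand): tactaagacagcATTAAAaagtgaagaaaa
Robo2 (chr16:73894366-73894395, minus strand): atacactttttaAATAAAaccaaatcttgt
Epha8 (chr4:136929423-136929452, minus strand): acttgtgatgagAATAAAtactgtctcatc
Unc5b (chr10:60762618-60762647, minus strand): taatttttatgaAATAAAttatatttccta
Ephb2 (chr4:136647541-136647570, minus strand): ttttttttccaaAATAAAtgtgaattgtaa
Epha5 carries ATTAAA and the other windows carry AATAAA. The first 5 genes shown were below WT in D50A libraries, and Epha8, Unc5b and Ephb2 were above WT in all D50A libraries but D50A 3. The distance from the hexamer to the annotated end of the transcript read was 14 to 23 bases for 7 of the 8 and 37 bases for Unc5b. The annotated genes Epha5 and Robo2 extend further 3', to 84054761 and 73891839, so their windows do not lie at the end of the gene.

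Levels in wild-type brain were compared per length, as CPM per kilobase of merged exon. Efnb3, an ephrin-B ligand gene, was highest at 46.9 ± 1.49 CPM per kb (SD, n = 3), and the next was Ephb6, a member of the EphB family that lacks kinase activity, at 35.6 ± 1.28 CPM per kb. Epha4, a receptor for ephrins of both classes, led the EphA receptors at 24.6 ± 1.04 CPM per kb. L1cam, an adhesion molecule of axons, was close behind at 23.4 ± 2.6 CPM per kb, a gap smaller than its SD. Unc5a, a netrin receptor gene, was at 19.7 ± 1.27 CPM per kb. These 5 genes stood above all other members.

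**Figure D1:**
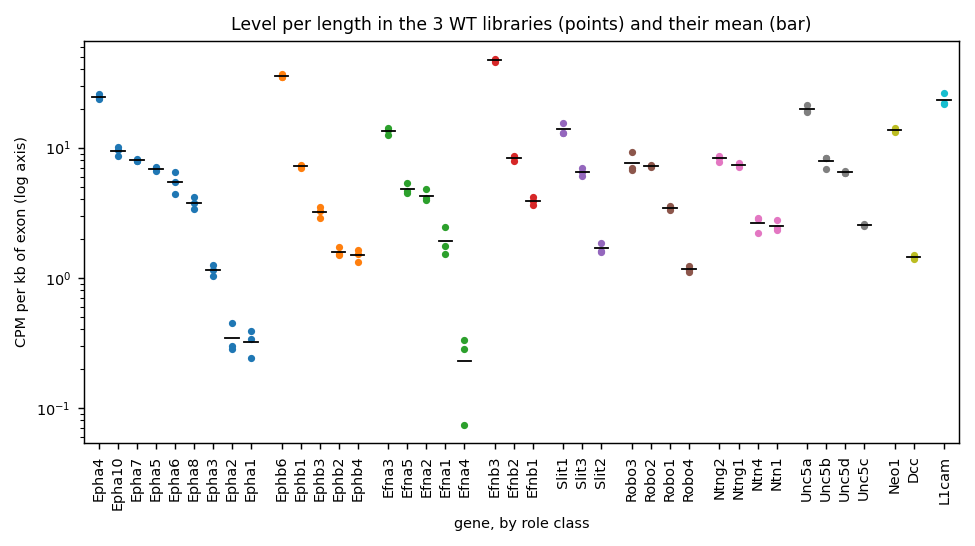
Level in WT of the 40 members with a length, as CPM per kilobase of exon on a log axis; points are the 3 WT libraries, bars their mean, and colours mark the role classes named in the text, with genes sorted by level within a class. Efnb3 at 46.9 and Ephb6 at 35.6 CPM per kb lie at the top, and Efna4, Epha1 and Epha2 below 0.5.

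Slit1, Neo1 and Efna3 formed the next level at 13.8 ± 1.44, 13.7 ± 0.529 and 13.4 ± 0.905 CPM per kb, and differed from each other by less than their SDs. Slit3 was at 6.51 ± 0.449 and Slit2 at 1.68 ± 0.14 CPM per kb, so the 3 Slit genes were well separated. Among Robo receptors Robo3 and Robo2 were alike at 7.66 ± 1.34 and 7.26 ± 0.178 CPM per kb, Robo1 was at 3.45 ± 0.144, and Robo4, the endothelial Robo, was lowest at 1.16 ± 0.0636 CPM per kb. The netrin-G genes, whose products are anchored synaptic adhesion ligands, were above the secreted netrins: Ntng2 had 8.3 ± 0.446 and Ntng1 had 7.4 ± 0.291 CPM per kb, against 2.64 ± 0.362 for Ntn4 and 2.51 ± 0.236 for Ntn1. Dcc, the classic netrin-1 receptor, had 1.44 ± 0.0552 CPM per kb, far below its relative Neo1. Epha1, Epha2 and Efna4 lay lowest, at 0.323 ± 0.0757, 0.342 ± 0.0897 and 0.23 ± 0.137 CPM per kb. Ntn3 had no length because its identifier is not in the annotation used.

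No guidance gene passed the threshold when the 5 D50A libraries were set against the 3 WT libraries. edgeR's quasi-likelihood test called 0 of 40 members and 0 of 16810 genes (0%) at an adjusted p under 0.05. At an unadjusted p under 0.05 it had 0 members, against 420 genes or 2.5% overall. DESeq2 called 0 members (0.238% of genes). With limma-voom and quality weights per sample 1 member passed, Unc5d, which was lower (3.08% of genes in either direction, 1.2% lower). The median log2 fold change of the 40 members was -0.31 against -0.01 over all genes tested, and 33 of the 40 were negative, against 51.4% of all genes.

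Without D50A 3 the median difference was smaller. The median of the members was -0.15 against 0.00 over 16754 genes tested, with 30 of 40 negative against 50.6% of all genes. edgeR again called 0 members and 0 genes (0%) at an adjusted p under 0.05, with a smallest adjusted p of 0.226 among members. An unadjusted p under 0.05 was reached by 14 of 40 members, 9 lower and 5 higher in D50A, against 9.39% of all genes, or 4.33% lower and 5.07% higher. DESeq2 called 0 members (0.961% of genes), and limma-voom called 3 (3.04% of genes): Unc5d and Epha4 lower (1.19%) and Epha8 higher (1.84%).

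**Figure D2:**
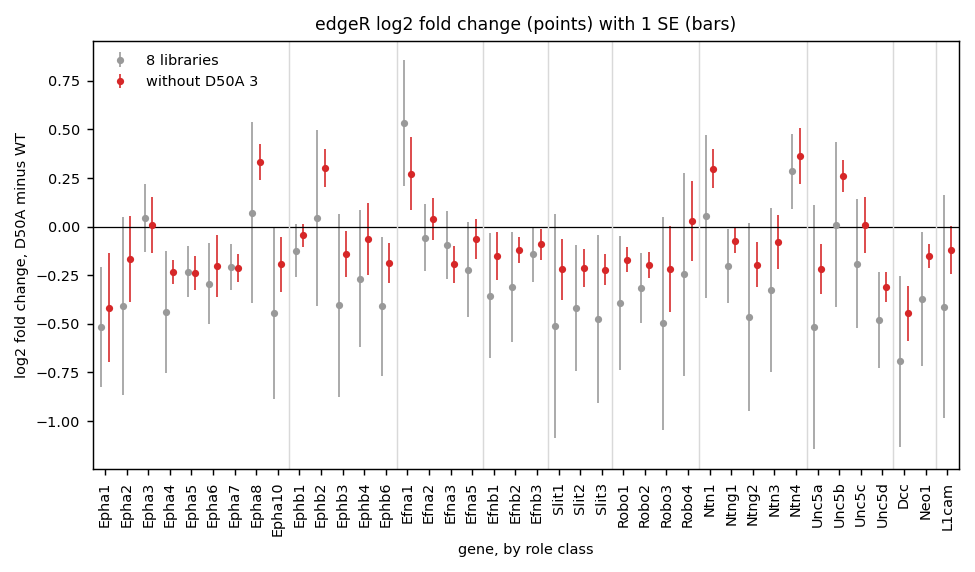
edgeR log2 fold change of D50A minus WT for the 40 tested members, ordered by role class; grey points use 8 libraries, red points leave out D50A 3, and bars are 1 SE. Most points lie below 0, the SEs shrink without D50A 3, and Efna1, Epha3, Epha8, Ephb2, Ntn1, Ntn4 and Unc5b lie above 0 in both fits.

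Unc5d, a netrin receptor gene on chromosome 8 (28646717 to 29219636, mm10), gave the smallest unadjusted p of the members in both fits. It had 42.4, 49.6, 22.9, 47.6 and 51.1 CPM in D50A 1 to 5, and 59.1, 59 and 60.5 CPM in WT 1 to 3. Each D50A library lay below each WT library, and D50A 3 was the lowest. Its log2 fold change was -0.48 ± 0.25 (SE) over 8 libraries (edgeR adjusted p = 0.837) and -0.31 ± 0.08 (SE) without D50A 3 (edgeR adjusted p = 0.226, and 0.0139 to 0.66 over the alternatives). The limma-voom adjusted p was 0.0302 with 8 libraries and 0.0275 without D50A 3.

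Epha4, on chromosome 1 (77367185 to 77515088), was also lower in every D50A library. Its CPM values were 167.8, 178, 61, 164 and 160 in D50A 1 to 5 against 208, 195 and 192 in WT 1 to 3. Without D50A 3 the 4 mutant libraries spanned a narrow range, at a mean of 167.4 ± 7.64 CPM (SD, n = 4), and WT was at 198 ± 8.37 CPM (SD, n = 3). The log2 fold change was then -0.23 ± 0.06 (SE) (edgeR adjusted p = 0.249, limma-voom adjusted p = 0.0416, and 0.032 to 0.696 over the alternatives).

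Dcc had the most negative log2 fold change of the members in both fits, -0.69 ± 0.44 (SE) over 8 libraries and -0.45 ± 0.14 (SE) without D50A 3 (edgeR adjusted p = 0.837 and 0.333). Its CPM values were 9.97, 15.4, 2.87, 14.8 and 15.1 in D50A 1 to 5 against 18.7, 18.3 and 19.7 in WT 1 to 3. All D50A libraries were below WT, and D50A 1 and D50A 3 lay below the other 3. The count in D50A 3 was 31, against 332 to 388 in WT.

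Epha5 and Epha7, receptors for ephrin-A ligands, were low in D50A libraries, D50A 3 included. Epha7 had 61.6, 72.2, 71.1, 66.5 and 70.4 CPM in D50A 1 to 5 against 78.4, 78 and 80.5 CPM in WT 1 to 3. Epha5 had 83.4, 107, 103, 96.7 and 102 CPM against 117, 112 and 118 CPM. For both genes D50A 3 lay within the range of the other D50A libraries and D50A 1 was lowest. The log2 fold change of Epha7 was -0.21 in both fits, with SEs of 0.12 and 0.07, and that of Epha5 was -0.23 and -0.24, with SEs of 0.13 and 0.09 (edgeR adjusted p = 0.837 for each with 8 libraries, 0.361 and 0.413 without D50A 3). These were the only cases among the members below WT in all D50A libraries where leaving out D50A 3 moved the fold change by less than 0.05.

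Robo2, a Slit receptor gene, had 98.5, 110, 68.4, 107 and 111 CPM in D50A 1 to 5 against 123, 120 and 126 CPM in WT 1 to 3. Neo1, a receptor for netrins and repulsive guidance molecules, had 111, 110, 34, 102 and 102 CPM against 120, 114 and 123 CPM. Both groups of values were separate, with D50A 3 lowest. Robo1 and Slit3, a receptor and a ligand of the same system, were likewise lower in all D50A libraries, with Robo1 at 15.7 to 53.2 CPM against 54.3 to 58.5 CPM and Slit3 at 7.22 to 36 CPM against 36.9 to 42.3 CPM.

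In all, 9 of 40 members had every D50A library below every WT library (Dcc, Epha4, Epha5, Epha7, Neo1, Robo1, Robo2, Slit3 and Unc5d), against 4.24% of all genes tested. The same 9 did so without D50A 3, against 5.8% of all genes. With 8 libraries 0 members had every D50A library above WT, against 3.22% of genes. Without D50A 3 there were 3, Epha8, Ephb2 and Unc5b, against 4.79% of genes. The 9 lower members had a GC content of 40.1% (Epha5) to 49.5% (Robo1) in the longest transcript, except Slit3 at 56.8%. The 3 higher members had 55.3% (Ephb2) to 61.3% (Epha8). In D50A 1, 14 of 20 members at or below the members' median GC were below the WT mean, against 3 of 19 above that median. The part of GC in how many members were separate was not tested.

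**Figure D3:**
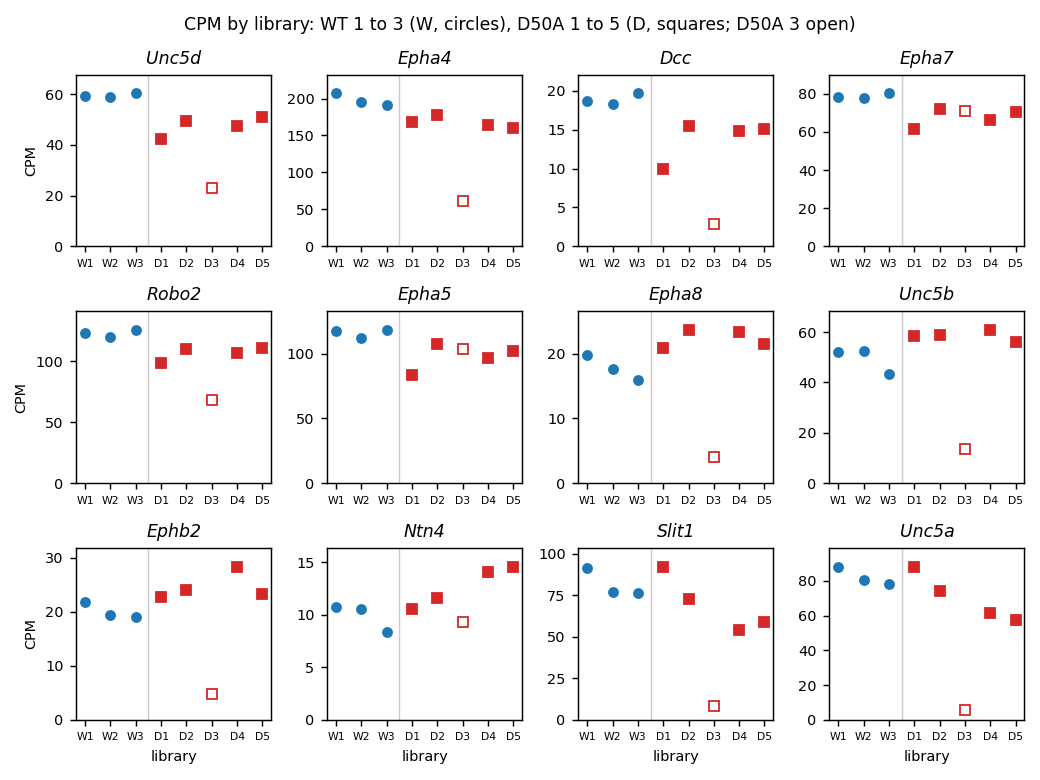
CPM of 12 members in each library, with each axis starting at 0; circles are WT 1 to 3, squares D50A 1 to 5, and the open square D50A 3. Unc5d, Epha4, Dcc, Epha7, Robo2 and Epha5 have all squares below the circles, while Epha8, Unc5b and Ephb2 have the filled squares above the circles and the open square far below.

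The members that were higher in D50A libraries came from the same families as those that were lower. Epha8, an EphA receptor gene, had 20.9, 23.7, 4.07, 23.3 and 21.5 CPM in D50A 1 to 5 against 19.8, 17.7 and 16 CPM in WT 1 to 3. Unc5b, a netrin receptor gene also expressed in blood vessels, had 58.6, 58.7, 13.5, 60.9 and 55.9 CPM against 52.1, 52.4 and 43.2 CPM. Ephb2, a receptor kinase of synapses and axons, had 22.7, 23.9, 4.81, 28.3 and 23.2 CPM against 21.7, 19.3 and 19 CPM. In each of these 3 genes the D50A libraries other than D50A 3 lay above WT, and D50A 3 lay far below it.

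Without D50A 3 the log2 fold change was 0.33 ± 0.09 (SE) for Epha8, 0.26 ± 0.08 (SE) for Unc5b and 0.3 ± 0.1 (SE) for Ephb2 (edgeR adjusted p = 0.269, 0.314 and 0.339). With 8 libraries the values were 0.07, 0.01 and 0.05, so D50A 3 alone moved them near 0. Ntn1, the netrin that binds Dcc and Unc5 receptors, showed the same form, with 17.9, 21.2, 4.44, 17.3 and 20.4 CPM against 17.4, 14.6 and 15.1 CPM. D50A 4 overlapped WT 1 there. Ntn4, a netrin of basement membranes, had the highest log2 fold change without D50A 3, 0.36 ± 0.14 (SE) (edgeR adjusted p = 0.456). Its values were 10.5, 11.6, 9.34, 14 and 14.6 CPM against 10.8, 10.5 and 8.32 CPM, and the groups overlapped through D50A 1 and D50A 3.

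The highest log2 fold change with 8 libraries belonged to Efna1, an ephrin-A ligand gene with low counts, at 0.53 ± 0.32 (SE) (edgeR adjusted p = 0.837). Its CPM values were 3.5, 4.36, 8.7, 4.71 and 4.2 in D50A 1 to 5 against 2.79, 4.45 and 3.21 in WT 1 to 3. D50A 3 held the high value, and the other 4 overlapped WT. Without it the log2 fold change was 0.27 ± 0.19 (SE). Epha1, an epithelial Eph receptor gene, had 6 to 25 counts in D50A libraries and 16 to 32 in WT, and its log2 fold change of -0.52 ± 0.31 (SE) over 8 libraries was not distinguishable from the spread (edgeR adjusted p = 0.837).

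Efnb3 and L1cam, both high in level per length, had overlapping groups without D50A 3. Efnb3 had 158, 138, 120, 136 and 125 CPM in D50A 1 to 5 against 153, 151 and 144 CPM in WT 1 to 3. D50A 1 lay above WT and the other D50A libraries below it. L1cam had 195, 159, 18.2, 134 and 139 CPM against 194, 162 and 160 CPM, with D50A 3 far below all others. Robo3, a receptor of commissural axons, varied widely among D50A libraries, with 64.5, 47.1, 37.8 and 29.1 CPM in D50A 1, 2, 4 and 5, 6.75 CPM in D50A 3 and 63, 46.2 and 48.2 CPM in WT 1 to 3.

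By role class, without D50A 3, all 3 Slits, all 3 ephrin-B ligands, Dcc, Neo1 and L1cam had negative log2 fold changes, with medians of -0.22 for Slits, -0.12 for ephrin-B ligands and -0.3 for the pair Dcc and Neo1. Of the 9 EphA receptors 7 were negative (median -0.2), of the 5 EphB receptors 4 (median -0.06), of the 4 Robos 3 (median -0.18), and of the 5 netrin and netrin-G genes 3 (median -0.07). Unc5 receptors were split, with Unc5a and Unc5d negative and Unc5b and Unc5c positive (median -0.1). The 4 tested ephrin-A ligands were also split, 2 and 2, with a median of -0.01. Class sizes are small, none of these members passed by edgeR, and the medians are descriptions.

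In D50A 1 the members' deviation from the WT mean (log2 CPM) went with the GC content of the longest transcript, with a Spearman rho of 0.69 and a Pearson r of 0.69 across 39 members with an annotation; across the 12438 genes whose mean log2 CPM passed 2, rho was 0.66. Of the 20 members at or below the median GC of 54.9%, 14 were below WT in D50A 1, with a median log2 ratio of -0.23. Of the 19 above it, 3 were below, with a median of 0.12. Genes of 1 library share its depth and preparation, so these values describe the library.

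D50A 5 leaned the other way, with a rho of -0.33 across members and -0.39 across genes. There the members at or below the median GC had a median log2 ratio of -0.16 and those above it -0.31. D50A 2 and D50A 4 had rho values of -0.07 and -0.14 across members. The WT libraries, each compared with the remaining WT mean, had rho values of 0.25, 0.16 and -0.45, so GC trends of such size occurred within WT as well, short of the 0.69 in D50A 1.

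**Figure D4:**
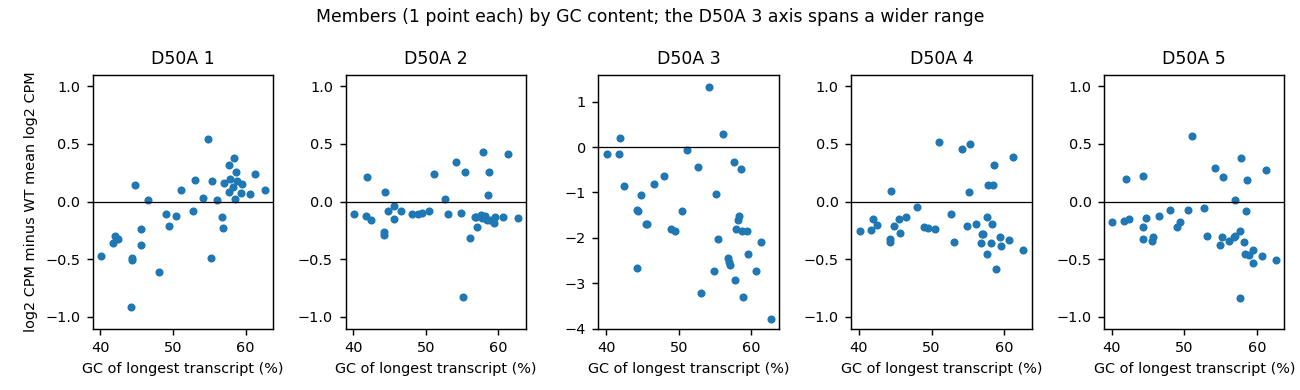
Deviation of each member from the WT mean (log2 CPM) in the 5 D50A libraries against the GC content of its longest transcript in percent; each point is 1 of 39 members, and the D50A 3 panel spans a wider range. Points rise with GC in D50A 1 (rho 0.69) and fall in D50A 3 (rho -0.5).

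In D50A 3 the members ranged from a log2 ratio of -3.79 for Unc5a to 1.32 for Efna1, with a median of -1.7, against a median of -0.09 over the 12438 genes. The rho with GC was -0.5 across members and -0.29 across genes, the latter weaker than the -0.45 across genes in WT 3. Members with low GC were spread there: the log2 ratio was -0.15 for Epha7, -0.16 for Epha5 and 0.21 for Epha3, but -0.85 for Robo2, -1.38 for Unc5d and -1.7 for Epha4. Several GC-rich members lay far below WT: the ratio was -3.31 for Slit1, -2.92 for Robo3, -2.73 for Ntng2 and -2.35 for Epha10. L1cam, near the middle in GC, was at -3.22, and Dcc, with a low GC of 44.3%, was at -2.68. The ligand genes Efna3 and Efnb3 had ratios of 0.29 and -0.32 with a GC above the median. With the length of merged exons rho was -0.1 across members and -0.51 across genes. Whether RNA quality set these values was not tested.

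**Figure D5:**
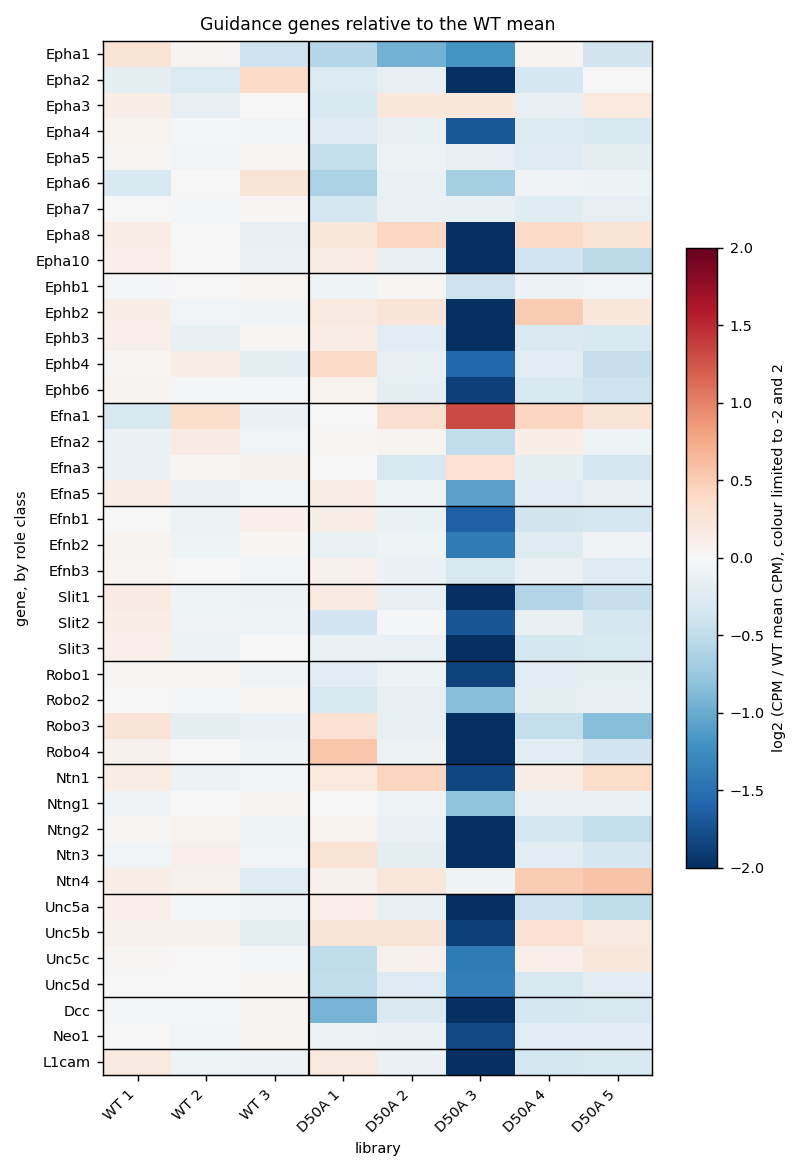
Log2 ratio of CPM to the WT mean for the 40 tested members (rows, by role class) in the 3 WT and 5 D50A libraries (columns); red is higher, blue lower, and colours stop at -2 and 2. D50A 3 is blue for most rows, with Epha3, Epha5, Epha7, Efna1, Efna3, Efnb3 and Ntn4 among the palest or red exceptions, and Epha8, Ephb2, Ntn1, Ntn4 and Unc5b are red in the other D50A columns.

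Leaving out both D50A 1 and D50A 3 gave calls by every tool. edgeR then called 13 of 40 members at an adjusted p under 0.05, against 1065 of 16591 genes or 6.42%. Dcc, Efna3, Epha10, Epha4, Ephb6, Ntng2, Slit1, Unc5a and Unc5d were lower (9 members, against 3.06% of genes), and Epha8, Ephb2, Ntn4 and Unc5b were higher (4 members, against 3.36%). DESeq2 called 11 members (6.03% of genes) and limma-voom 17 (9.8%). The groups did not overlap for 27 members (25.4% of genes), 22 of them lower (13.9%) and 5 higher (11.5%). D50A 2, 4 and 5, which remain, had high cerebellar markers: the granule cell markers summed to 776 to 1027 CPM there against 187 to 193 CPM in WT, and all 12 passed by edgeR in this fit. The 8 Purkinje cell markers summed to 1266 to 1524 CPM against 872 to 934 CPM, and the 10 cortical markers to 596 to 644 CPM against 689 to 742 CPM. In bulk tissue, fewer cells of a type and less RNA per cell cannot be told apart, and the part of regional content in these calls was not tested.

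D50A 1, whose granule cell marker sum of 178 CPM was close to WT and whose values went with GC, divides the 13 called members. Unc5d, Epha4 and Dcc, with a GC of 44.3%, 45.6% and 44.3%, were below every WT library in D50A 1 as well. Epha8, Unc5b and Ephb2, with a GC of 61.3%, 58.7% and 55.3%, were above every WT library in it. The other 7, with a GC of 51.1% (Ntn4) to 62.7% (Unc5a), were not on the same side of WT. Other regional marker sums in D50A 1 were not all at the WT level. Hippocampal markers summed to 297 CPM against 355 to 392 CPM in WT, and striatal markers to 677 against 704 to 740 CPM. Thalamic markers summed to 454 against 462 to 511 CPM, and Purkinje markers to 800 against 872 to 934 CPM. Cortical markers, at 716 CPM, lay within the WT range of 689 to 742 CPM. The part of GC or of regional content in this division was not tested. Slit1 had 92.4 CPM in D50A 1, above its 76.6 to 91.6 CPM in WT, while D50A 2, 4 and 5 had 72.8, 54.2 and 59.1 CPM. Ephb6 had 141 CPM in D50A 1, above its 131 to 140 CPM in WT, while D50A 2, 4 and 5 had 118, 109 and 100 CPM. Epha10 had 75.2 CPM there, above 62 to 73.1 CPM in WT, against 61.6, 51.9 and 46.7 CPM. Unc5a, at 87.8 CPM in D50A 1, lay within its WT range of 78.1 to 88.2 CPM, as did Ntng2, Efna3 and Ntn4.

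Unc5a had 74.1, 61.2 and 57.6 CPM in D50A 2, 4 and 5 and 5.83 CPM in D50A 3. Ntng2 had 34.6, 30.2, 4.9, 26.2 and 23.8 CPM in D50A 1 to 5 against 33.5, 34.7 and 31.2 CPM in WT 1 to 3. Efna3 had 32.9, 26.2, 40, 28.4 and 25.7 CPM against 30.2, 33.2 and 34.5 CPM. In all 3 genes D50A 2, 4 and 5 lay below WT. D50A 3 was the lowest library for Unc5a and Ntng2 and the highest for Efna3. Ephb6 had 37 CPM, Slit1 8.14 CPM and Epha10 13.2 CPM in D50A 3.

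Unc5c, a netrin receptor gene of the cerebellum among other regions, was below WT in D50A 1 and D50A 3 and above WT in the other D50A libraries. It had 51.5, 51.9 and 56.8 CPM in D50A 2, 4 and 5, 34.3 CPM in D50A 1, 18.3 CPM in D50A 3, and WT spanned 47.8 to 49.3 CPM. Without D50A 3 its log2 fold change was 0.01 ± 0.14 (SE), and without D50A 1 and D50A 3 it was 0.15 ± 0.06 (SE) (edgeR adjusted p = 0.99 and 0.145). The GC content of Unc5c was 44.35%. The part of GC or of regional content in these values was not tested.

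Robo4 and Ephb4, both known from blood vessels, were highest in D50A 1, as was the sum of endothelial markers; Unc5b was highest in D50A 4. Robo4 had 8.99 CPM in D50A 1, 4.7 to 5.73 CPM in D50A 2, 4 and 5, 0.833 CPM in D50A 3, and WT spanned 5.82 to 6.49 CPM. Ephb4, the receptor of venous endothelium, had 8.95 CPM in D50A 1, 4.99 to 6.13 CPM in D50A 2, 4 and 5, 2.31 CPM in D50A 3, and WT spanned 6.12 to 7.54 CPM. The 10 endothelial markers summed to 308 CPM in D50A 1, 242 to 258 CPM in D50A 2, 4 and 5, 209 CPM in D50A 3, and WT spanned 257 to 292 CPM. The GC content was 54.9% for Robo4 and 58.4% for Ephb4. The part of vessel content or GC in these values was not tested.

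Other members had overlapping groups without D50A 3, among them Ephb1, a receptor for ephrin-B ligands, which had a mean of 48.3 ± 1.85 CPM in 4 D50A libraries (SD) and 50.3 ± 1.34 CPM in WT (SD, n = 3). Epha3 was at 9.95 ± 1.76 against 9.94 ± 0.985 CPM, Efna2 at 9.31 ± 0.602 against 9.11 ± 0.984 CPM, Efna5 at 18.4 ± 2.05 against 19.4 ± 1.91 CPM, and Ntn3 at 12.8 ± 2.51 against 13.7 ± 0.869 CPM. Efnb1 and Efnb2, at 11.9 ± 1.96 against 13.4 ± 0.96 CPM and 52.4 ± 2.75 against 57.4 ± 2.84 CPM, and Slit2, at 36.6 ± 4.13 against 42.7 ± 3.55 CPM, were lower on average with overlapping libraries. Epha6, Ephb3 and Ntng1 also overlapped, and Epha2 had 2 to 35 counts per library.

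Beside the members, 47 signalling partners and co-receptors of these pathways were all tested. edgeR called 0 of them with 8 libraries and 0 without D50A 3. The unadjusted p was under 0.05 for 1 of 47 (2.5% of all genes) and 9 of 47 (9.39% of all genes) in these fits. Their median log2 fold change was -0.26 with 8 libraries and -0.08 without D50A 3. The smallest p without D50A 3 belonged to Chn2, a Rac-regulating chimaerin gene, with 32.4 CPM in D50A 1, 64.8 to 81.3 CPM in D50A 2 to 5 and 29.9 to 32.6 CPM in WT (log2 fold change 1.06, SE 0.26, edgeR adjusted p = 0.226). Its high libraries are those with high granule cell markers, whose part in it was not tested. Trim67, a ubiquitin ligase gene linked to netrin signalling, had a log2 fold change of 0.54 ± 0.15 (SE) without D50A 3 (edgeR adjusted p = 0.249). Ablim1, an actin-binding protein gene, had 0.23 ± 0.07 (SE) (edgeR adjusted p = 0.27). With 8 libraries the values were 0.36 and 0.06, and D50A 3 lay below WT for both. Trim67 had 12.5 CPM in D50A 1, 16.2 to 19.8 CPM in D50A 2, 4 and 5 and 10.9 to 12.1 CPM in WT. The part of granule cell content in Trim67 was not tested either. Without D50A 1 and D50A 3, edgeR called Ablim1, Chn2 and Trim67 higher (3 of 47, against 3.36% of all genes) and Grip2, Kalrn, Ngef and Nrcam lower (4 of 47, against 3.06%).

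Some members are neighbours in the genome (mm10). Ephb2 (136647539 to 136835988) and Epha8 (136929419 to 136956816) lie close together on chromosome 4, and both were above WT in all D50A libraries but D50A 3. Robo1 (72308306 to 73046095) and Robo2 (73891839 to 74411825) on chromosome 16 were both below WT in all D50A libraries. Efna1, Efna3 and Efna4 lie between 89271733 and 89338028 on chromosome 3, and each had its highest CPM in D50A 3. For Efna4, which did not pass the filter, that value rests on 7 counts, against 11 counts in WT 1. Robo4 and Robo3 lie between 37401897 and 37433246 on chromosome 9, and both had their highest CPM in D50A 1. Members' values in D50A 1 went with GC, and whether neighbouring genes change together was not tested. Exons of 11 of the 40 annotated members share bases with another gene. The share was 14.1% of Efna3 (an antisense transcript), 14% of Ntng2, 10.5% of Efna4, 6.01% of Epha1 and at most 2.17% for the other 7. For Ntng2 and L1cam the other gene lies on the same strand, and for the rest on the opposite strand. Whether the counting used strand is not known here, nor is how reads of those stretches were assigned.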

How the data were processed

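Values are raw counts of reads for each gene, as deposited by the authors, for 5 D50A and 3 WT libraries. The submitters' processing notes name build mm10, STAR 2.5, HTSeq 0.6.1, CASAVA 1.8 and DESeq2 2, with no order or role; which annotation was counted, and whether by strand, is not known here. Groups follow the genotype label.

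Counts of the whole table were tested with edgeR 4.0.16 in R 4.3.3 (filterByExpr, TMM, quasi-likelihood F test, Benjamini-Hochberg over all tested genes, threshold 0.05), with 8 libraries and, refitted, without D50A 3. CPM values use the TMM factors of the 8 libraries, log2 CPM adds a prior count of 2, and the SE is the log2 fold change over the square root of F. Alternatives were DESeq2 1.42.0, limma-voom (limma 3.58.1), other scalings and filters, a threshold of 0.1 and libraries left out. The fits were also run on simulated counts with known changes, and the share of changes recovered is not given here. Positions, lengths and GC content came from GENCODE M21, where 25484 of 25815 identifiers matched.

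The members and lists were chosen with earlier results of these data known. Per-library values are given for members with the 8 smallest p in either fit, the highest level in a class or an extreme fold change; others were named after their values were seen. Depth was 13675945 to 24802272 counts.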

Additional observations from a re-analysis of the deposited data

Results flagged for a closer look

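In 12 of the 41 members 1 of the 5 D50A libraries lay far from the other 4, judged by its gap to the nearest library over the whole range of the group (above the critical ratio of 0.71 for 5 samples). Chance gives about 1 such group in 20, and in all 12 the library was D50A 3. Of the 16810 genes tested 40.1% passed the same ratio, 39% with D50A 3 as the library apart, against 30% of the 40 tested members, so the share of members was not above that of all genes. It was the highest for Efna1, at 8.7 CPM against 4.71 CPM for the next library. It was the lowest for the Eph receptor genes Epha4 (61 CPM, next 160 CPM), Epha8 (4.07 CPM, next 20.9 CPM), Ephb2 (4.81 CPM, next 22.7 CPM) and Epha2 (0.185 CPM, next 1.27 CPM). It was the lowest for the receptor genes Neo1 (34 CPM, next 102 CPM), Robo1 (15.7 CPM, next 48.6 CPM) and Unc5b (13.5 CPM, next 55.9 CPM). Among ligand genes it was the lowest for Efnb2 (21.6 CPM, next 48.5 CPM), Slit3 (7.22 CPM, next 30.8 CPM), Ntn1 (4.44 CPM, next 17.3 CPM) and Ntng1 (34.9 CPM, next 55.6 CPM). Members such as Slit1, Unc5a and L1cam, with lower ratios of D50A 3 to WT, did not pass this rule because their other D50A libraries were more spread.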

How the results depend on the processing

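The median log2 fold change of the members stayed negative in all alternatives, from -0.42 to -0.15 with 8 libraries and from -0.17 to -0.1 without D50A 3, and no scaling moved the median of all genes by over 0.1. With 8 libraries, against 0 calls, limma-voom called 1 member and 517 genes, DESeq2 40 genes, and the fit without D50A 1 and D50A 3 together 13 members and 1065 genes; leaving out 1 library gave 0 members and 0 to 26 genes. The 26 came without D50A 1. Without D50A 3, against 0 calls, limma-voom called 3 members and 509 genes, DESeq2 161 genes, no filter on low counts 85 genes and a threshold of 0.1 gave 1 gene; leaving out 1 more library gave 0 to 13 members and 0 to 1065 genes, the highest without D50A 1. Of the 21 members picked by p, level or fold change, 3 changed sign as 1 library was left out. Their 8-library log2 fold change was near 0. Unc5b ranged from -0.0767 without WT 3 to 0.26 without D50A 3. Epha8 ranged from -0.0264 without D50A 2 to 0.332 without D50A 3, and Ephb2 from -0.0963 without D50A 4 to 0.302 without D50A 3. Outside these 21, leaving out D50A 3 moved Unc5c from -0.19 to 0.01, Robo4 from -0.25 to 0.03 and Efna2 from -0.06 to 0.04. The cause was not tested. Without D50A 3 none of the 21 members picked by p, level or fold change changed sign. Robo4, outside these 21, went from 0.03 without D50A 3 to -0.22 without D50A 1 and D50A 3. Counts of members with separate groups, rescaled after seeing the data, were 9 with 8 libraries and 12 to 13 without D50A 3. With TMM scaling the groups were separate for 7.45% of all genes with 8 libraries and 10.6% without D50A 3. For the other scalings no share over all genes is given, so their counts cannot be set against one. Genes with few counts, such as Efna4 and Epha1, are limited by depth.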
